A study of Mus musculus with 1536 samples.

Results

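The 10 imprinted genes described here, all with roles in growth, were followed in lymphatic endothelial cells (LECs) of the adult mouse nasopharynx, namely *H19*, *Igf2*, *Meg3*, *Peg3*, *Cdkn1c*, *Grb10*, *Plagl1*, *Mest*, *Ndn* and *Zim1*. They were taken by symbol from a matrix of 23168 genes, in which 9 of the 10 have a row. *Zim1* was not analysed here. The genes were selected on measured values of these cells, including the level of *H19* in cells with high *Lyve1*, so what follows is a description of these cells and no test was made. The cells came from C57BL/6 mice aged 10–12 weeks. Mucosa of 30 animals of both sexes was pooled, and CD31+PDPN+ cells were sorted singly into 96-well plates for Smart-seq3, which reads full-length cDNA of single cells. Labels tie no cell to an animal or a plate, so all cells kept by the authors form 1 sample. Standard deviations over cells and 95% intervals therefore describe this pool only, and the intervals cover counting error only. Aged cells were not analysed here.

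Imprinted genes are expressed mainly from 1 parental copy, which is set by DNA methylation marks laid down in the germ line. *H19*, *Meg3*, *Cdkn1c* and, in most tissues, *Grb10* are read from the maternal copy and tend to hold back growth. *Igf2*, *Peg3*, *Plagl1*, *Mest* and *Ndn* are read from the paternal copy, and several of them promote fetal growth. Most fall sharply in level after birth, and *H19* and *Igf2* share enhancers and an imprinting control region. The mice were of an inbred strain and allele-specific reads were not analysed here, so the values below hold both copies.

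Of the 10 genes, 6 lie on chromosome 7 of GRCm38. *H19*, a long non-coding RNA with 2460 exonic bases, spans chr7:142575529-142578143 on the minus strand, and *Igf2*, encoding insulin-like growth factor 2, spans chr7:142650766-142666816 on the same strand, 72.6 kb away. *Cdkn1c*, which encodes the cell-cycle inhibitor p57, lies at chr7:143458339-143461050. *Peg3*, a zinc-finger gene, is at chr7:6703892-6730431, and the single-exon gene *Ndn*, encoding necdin, is at chr7:62346569-62350262. The others are *Meg3*, a non-coding RNA (chr12:109541001-109571726), *Grb10*, an adaptor that restrains insulin and IGF receptor signalling (chr11:11930508-12038683), *Plagl1*, a zinc-finger transcription factor (chr10:13060504-13131694), and *Mest*, which encodes a hydrolase-like protein (chr6:30723547-30748465). Whether reads were counted by strand is not given in the sources used here. Exons of *H19*, *Igf2*, *Meg3*, *Cdkn1c*, *Plagl1* and *Mest* overlap other annotated genes, so a few of their reads may belong to those. The partners include *Igf2os* for *Igf2* and *Copg2* for *Mest*, both on the other strand.

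*H19*, *Igf2*, *Mest* and *Meg3* also carry microRNAs, shown here because the transcripts measured below are their precursors or hosts. *Mir675* lies within an exon in 3 of 7 annotated *H19* transcripts, and *Mir770* within an exon in 1 of 11 *Meg3* transcripts. *Mir483* and *Mir335* lie within no exon of the 9 *Igf2* and 11 *Mest* transcripts, so they are intronic. Mature sequences are from RefSeq on GRCm38.p6, with bases 2 to 8, the seed that pairs with targets, in capitals.
mmu-miR-675-5p (H19, chr7:142577112-142577133, minus): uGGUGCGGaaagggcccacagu
mmu-miR-675-3p (H19, chr7:142577078-142577099, minus): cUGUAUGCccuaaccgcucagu
mmu-miR-483-5p (Igf2, chr7:142654968-142654989, minus): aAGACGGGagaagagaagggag
mmu-miR-483-3p (Igf2, chr7:142654932-142654952, minus): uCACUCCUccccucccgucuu
mmu-miR-335-5p (Mest, chr6:30741314-30741336, plus): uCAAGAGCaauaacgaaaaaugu
mmu-miR-335-3p (Mest, chr6:30741354-30741375, plus): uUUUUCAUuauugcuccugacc
mmu-miR-770-5p (Meg3, chr12:109563710-109563731, plus): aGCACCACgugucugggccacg
mmu-miR-770-3p (Meg3, chr12:109563744-109563765, plus): cGUGGGCCugacguggagcugg
No 2 of these share a seed, and each seed occurs in 1 of the 1738 mature mouse microRNAs of the table. Mature microRNAs are too short for these libraries and were not measured.

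For the promoters, 8 of the 10 genes matched the RefSeq table of start sites, which has no entry for *H19* or *Cdkn1c*. *Grb10* and *Igf2* are shown because they had higher shares of cells with reads at high *Lyve1*. Each gene has 2 windows of 250 bases before a start that no annotated exon overlaps, and the 1 of each gene that held any of the motifs searched is printed. The other 2 windows held 0 matches, with 8 CpG dinucleotides for *Grb10* and 1 for *Igf2*. Capitals mark the GC box (GGGCGG), the CCAAT box (CCAAT), the TATA box (TATAAA) and the E box (CACGTG), each searched on both strands.
Grb10 (chr11:12037421-12037670, minus): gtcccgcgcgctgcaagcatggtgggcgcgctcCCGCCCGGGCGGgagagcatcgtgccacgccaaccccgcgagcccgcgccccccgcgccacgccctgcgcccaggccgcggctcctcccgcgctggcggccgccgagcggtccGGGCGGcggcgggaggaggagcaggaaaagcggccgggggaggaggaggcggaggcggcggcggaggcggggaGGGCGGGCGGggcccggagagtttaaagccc
Igf2 (chr7:142657497-142657746, minus): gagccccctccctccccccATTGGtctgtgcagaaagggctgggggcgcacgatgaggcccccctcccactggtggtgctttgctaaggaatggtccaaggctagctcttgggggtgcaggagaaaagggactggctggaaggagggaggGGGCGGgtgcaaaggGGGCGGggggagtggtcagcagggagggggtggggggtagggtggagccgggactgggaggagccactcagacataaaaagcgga
The *Grb10* window is a dense CpG island segment with 40 CpG dinucleotides and 5 matches of the GC box, of which a pair overlap. The *Igf2* window has 6 CpG dinucleotides, 2 GC boxes and 1 CCAAT box. Over all 32851 windows of this length, the median was 6 CpG dinucleotides, 32.7% held a GC box, 33.8% a CCAAT box, 12.4% a TATA box and 6.02% an E box. Such matches are letters in a window and were not tested as binding sites.

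Deposited values were on a natural log scale, taken of reads per 10000 with 1 added, and whole reads were recovered from all values above 0. Total reads per cell ran from 7433 to 3524358 with a median of 350746, and a gene counted as found with at least 1 read. Because a deep cell shows a rare transcript more often, shares were also taken after thinning each cell to 20000 reads, which left out 51 shallower cells. The LEC genes *Prox1*, *Flt4*, *Pdpn*, *Lyve1*, *Cdh5* and *Pecam1* were all present, with at least 3 of the 6 in every cell. At least 2 of 5 fibroblast genes were found in 8 cells, 2 of 5 mural genes in 2 cells and 2 of 5 immune genes in 2 cells. *Ptprc* and *Cd3e* had no read in any cell, which allows a share of up to 0.356% by the limit of 3 counts used here for a count of 0, and of up to 0.437% by the exact interval.

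Over all cells, *Grb10* was by far the most widespread of these genes, with reads in 55.3% of cells (95% interval 51.9 to 58.7). *Ndn* followed with 24.3% (21.5 to 27.4), and then *H19* with 18.8% (16.2 to 21.6) and *Mest* with 18.4% (15.8 to 21.2). The interval of *H19* overlaps those of *Ndn* and *Mest*, whereas the intervals of *Ndn* and *Mest* are separate. A lower group held *Peg3* (71 cells, 8.43%), *Cdkn1c* (68, 8.08%), *Igf2* (63, 7.48%) and *Plagl1* (54, 6.41%), all with overlapping intervals. *Meg3* was found in 12 cells (1.43%, 0.739 to 2.48). Thinned to 20000 reads, the shares became 39.2% for *Grb10*, 16.9% for *Ndn*, 12.4% for *Mest*, 12.3% for *H19* and 1.64% for *Igf2*. So *Igf2* lost most of its cells at equal depth, whereas *H19* kept a large part of its own. On the natural log scale the mean was 0.406 ± 0.575 (SD over cells) for *Grb10*, 0.197 ± 0.465 for *Ndn*, 0.147 ± 0.444 for *H19* and 0.103 ± 0.297 for *Mest*, and at most 0.0541 for the other 5.

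Order by level changes once exon length is taken into account. Per kilobase of exon, mean reads per 10000 were highest for *H19* (0.153), then *Ndn* (0.116), *Grb10* (0.0952), *Mest* (0.0463) and *Cdkn1c* (0.0227). *Peg3* (0.00775), *Plagl1* (0.00508), *Igf2* (0.00268) and *Meg3* (0.00125) were lower. The SD over cells exceeded the mean for every one of the 9 genes on the natural log scale, and whether neighbours in this order differ was not tested. Full-length exon models were used for the lengths, and transcripts shorter than these would have a higher value per kilobase.

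Each gene was carried by a minority of strongly expressing cells. For *H19*, 19 cells held 50% or more of its summed reads per 10000, and 51 cells had a value above 1, whereas 50 cells had 1 to 3 reads. Its highest value, 2.90, stood for 17.1 reads per 10000 in a cell of 168546 reads with a *Lyve1* value of 3.52. All 5 cells with the most *H19* had a *Lyve1* value of at least 2.39 and an *Igfbp5* value of at most 0.466. *Igf2* was sparse in a different way, because 39 of its 63 cells had at most 3 reads and 1 cell exceeded a value of 1. *Meg3* rested on very few cells, of which 2 held at least 50% of the sum and 1, with 6.40 reads per 10000 and a *Lyve1* value of 0.140, held 33.6%. The 5 cells with the most *Plagl1* had a *Lyve1* value of at most 0.0987, and 4 of them had *Igfbp5* above 2.

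**Figure D1:**
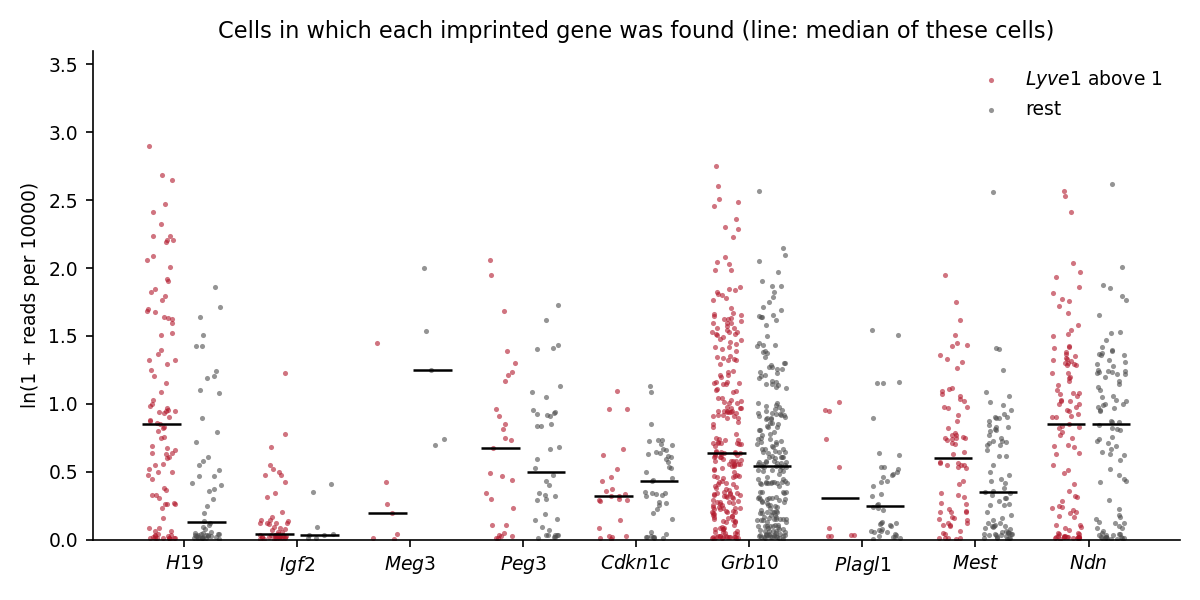
Values of each imprinted gene on the y axis, as the natural log of 1 plus reads per 10000, in each cell in which it was found, for cells with *Lyve1* above 1 (red) and the rest (grey), with the median of these cells as a line. *H19* is the gene with the widest gap between the medians among those found in over 20 cells on both sides, at 0.854 against 0.127, and cells without a read are not drawn.

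LYVE1 is a hyaluronan receptor of lymphatic capillaries and is low in collecting vessels and valves. Cells were split at a *Lyve1* value of 1, which put 48.3% of the cells above it. The median depth was 297641 reads above the split and 376870 in the rest, with 4167 and 4207 genes per cell, so cells with high *Lyve1* were if anything shallower. Over all 11572 genes found in at least 5% of cells, the ratio of mean reads per 10000 plus 0.1 was at least 1.5-fold higher above the split for 2.23% and at least 1.5-fold lower for 2.12%. Of the imprinted growth genes, 8 passed the 5% filter, and 2 of them (*H19* and *Grb10*) were past 1.5-fold higher and 0 past 1.5-fold lower. The median log2 ratio was 0.32 over these 8 genes and 0.01 over all genes tested. As the genes were chosen with this contrast known, the count is no evidence about the group.

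*H19* had the largest difference in percentage points and the highest log2 ratio of the 8 tested genes. It was found in 25.1% of the cells with *Lyve1* above 1 (20.9 to 29.6) and in 56 cells, or 12.9%, of the rest (9.87 to 16.4). At 20000 reads per cell the shares were 19.2% (72 cells, 15.3 to 23.6) and 6.01% (25 cells, 3.93 to 8.74), a difference of 13.2 percentage points (Newcombe interval 8.63 to 17.9). Among cells in which it was found, the natural log value ran from 0.00658 to 2.90 with a median of 0.854 above the split, and from 0.00610 to 1.86 with a median of 0.127 in the rest. The ranges overlap, but values above 1 were seen in 40 cells above the split and 11 in the rest. In the rest, 29 of the 56 cells had at most 3 reads, whereas above the split 21 cells did. The mean was 0.244 ± 0.572 against 0.0563 ± 0.242 on the natural log scale, and the log2 ratio of mean reads per 10000 plus 0.1 was 1.88, rank 7 of 11572 genes. That ratio depends on the pseudocount, at 0.59 with a pseudocount of 1 and 2.52 with 0.01.

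*Grb10*, found in over 50% of cells on both sides, had a smaller gap in relative terms. Reads were present in 59.2% of the cells above the split and 51.7% of the rest, and at 20000 reads in 45.6% and 33.4%, a difference of 12.2 points (5.37 to 18.9). Its median among cells with reads was 0.640 against 0.542, its log2 ratio was 0.66, and 82 against 49 cells had a value above 1. With a pseudocount of 1 the log2 ratio was 0.34, under 1.5-fold, and at 100000 reads per cell the interval of the difference in share, −0.407 to 15.3 points, held 0.

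*Igf2*, the neighbour of *H19*, was found in 55 of the cells above the split (13.5%, 10.3 to 17.2) and in 8 of the rest (1.84%, 0.797 to 3.59). Its values were low, with medians of 0.0440 and 0.0380 on the natural log scale among cells with reads. At 20000 reads only 2.93% and 0.481% of cells retained a read, a difference of 2.45 points (0.655 to 4.72), which grew to 8.57 points at 100000 reads per cell and 11.7 points without thinning. Counting only cells with at least 2 reads after thinning, the difference was 0.826 points (−0.459 to 2.48) and could not be resolved. The log2 ratio of 0.33 was under 1.5-fold on a pseudocount larger than the gene's own mean of 0.0154 reads per 10000, and it was 1.62 with a pseudocount of 0.01. In relative terms with no pseudocount *Igf2* differed more than *H19*, with means of 0.0289 against 0.00267 reads per 10000, where those of *H19* were 0.665 and 0.108. Cells with *Igf2* had a median of 974146 reads, against 326024 for the others.

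*Plagl1* and *Cdkn1c* went the other way. *Plagl1* was found in 10 cells above the split (2.46%, 1.18 to 4.47) and in 44 of the rest (10.1%, 7.45 to 13.3), and at 20000 reads in 1.60% and 6.01%, a difference of −4.41 points (−7.26 to −1.76). *Cdkn1c* was found in 24 (5.90%) and 44 cells (10.1%), and at 20000 reads in 1.87% and 6.01%, a difference of −4.14 points (−7.02 to −1.43). For *Cdkn1c* the interval held 0 at 100000 reads per cell (−6.97 to 1.46). Neither was past 1.5-fold by the ratio of means (log2 ratios of −0.46 and −0.29), but the pseudocount of 0.1 exceeds both genes' means, and with 0.01 the log2 ratios were −1.39 and −0.79, past 1.5-fold. Mean reads per 10000 were 0.0171 against 0.0609 for *Plagl1* and 0.0310 against 0.0606 for *Cdkn1c*. The median of cells with reads was 0.309 against 0.249 for *Plagl1* and 0.319 against 0.435 for *Cdkn1c*.

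For the remaining genes no difference was resolved by a split at 1. At 20000 reads, *Mest* was found in 13.6% above the split and 11.3% of the rest (difference 2.30 points, −2.30 to 6.99), *Ndn* in 18.7% and 15.4% (3.28, −1.95 to 8.58), *Peg3* in 4.53% and 6.01% (−1.48, −4.67 to 1.75) and *Meg3* in 1.07% and 1.202% (−0.135, −1.85 to 1.65). For *Ndn* the median value in cells with reads was 0.850 against 0.855. Split at a *Lyve1* value of 2 instead, the intervals of *Mest* (5.38 points, 0.639 to 10.5) and *Ndn* (5.42 points, 0.0471 to 11.1) left out 0.

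**Figure D2:**
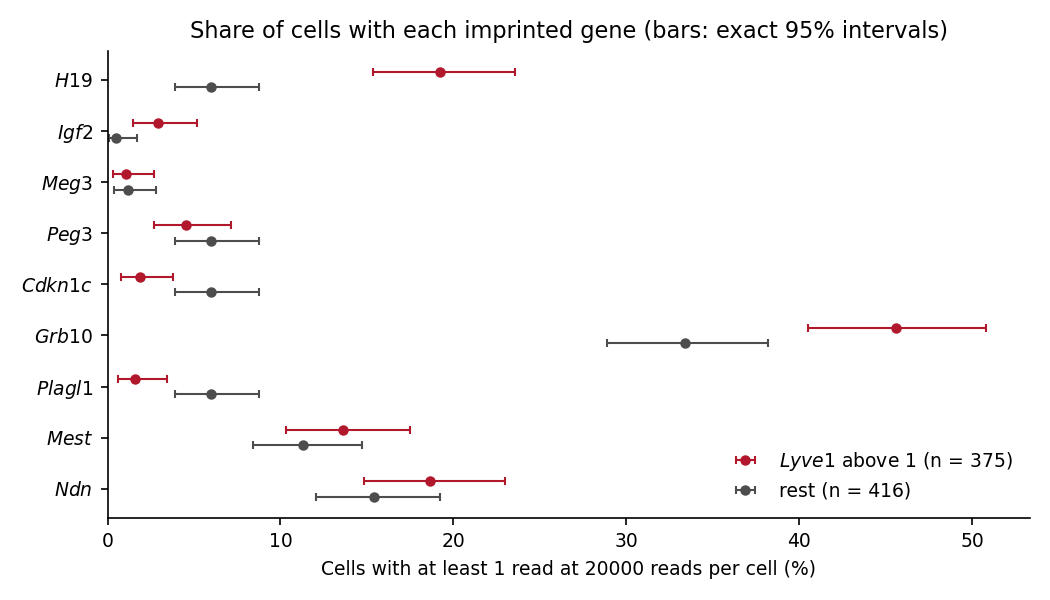
Share of cells with at least 1 read of each imprinted gene on the x axis, in percent with every cell thinned to 20000 reads, for cells with *Lyve1* above 1 (red) and the rest (grey). Bars are exact 95% intervals, which are separate for *H19*, *Grb10*, *Cdkn1c* and *Plagl1* and overlap for *Igf2*, *Meg3*, *Peg3*, *Mest* and *Ndn*.

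**Figure D3:**
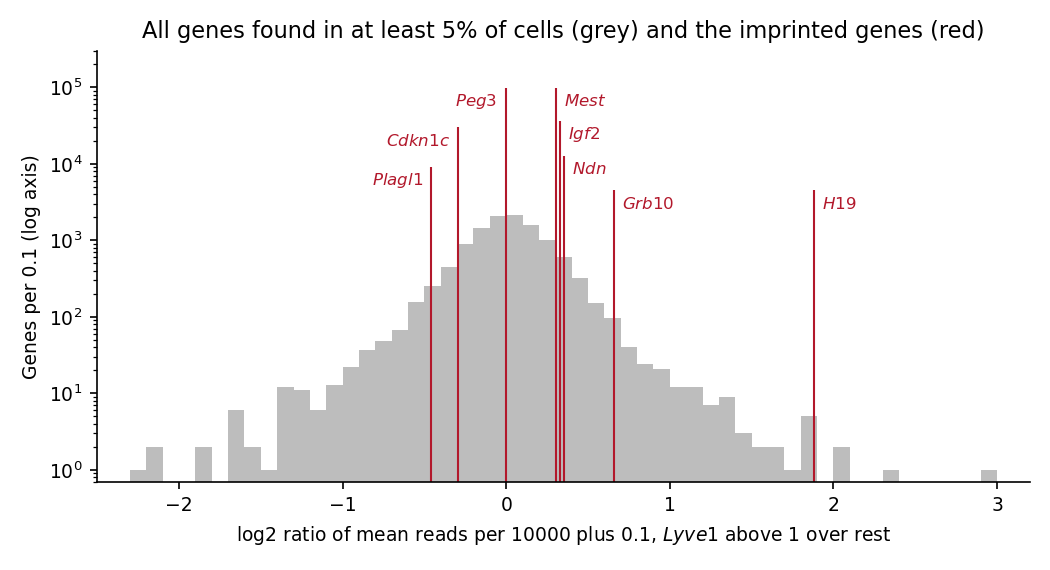
Number of genes on a log y axis by log2 ratio of mean reads per 10000 plus 0.1 on the x axis, *Lyve1* above 1 over the rest, for the 11572 genes found in at least 5% of cells (grey), with 8 imprinted genes as red lines. *H19* lies far out in the right tail at 1.88 and *Grb10* on its shoulder at 0.66, while the other 6 lie between −0.46 and 0.35.

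Splitting *Lyve1* more finely showed where these differences arose. The thinned share of cells with *H19* was 6.06% in cells without *Lyve1*, 5.99% at values above 0 to 1, 8.70% above 1 to 2, 15.7% above 2 to 3 and 25.4% above 3 (19.3 to 32.3). Without thinning the shares were 10.8%, 13.6%, 12.5%, 23.8% and 30.96%. The higher level of *H19* was therefore found in cells with a *Lyve1* value above 2, and the step at 1 itself was not visible. In the 27 cells up to 0.25 below the split, 6 had *H19*, and in the 26 cells up to 0.25 above it, 3 had *H19*. *Igf2* was found in 0 of both sets, which allows up to 11.1% and 11.5%, or 12.8% and 13.2% by the exact intervals.

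Thinned shares of *Igf2* were 1.01%, 0.315%, 1.45%, 2.48% and 3.78% over the same ranges, with intervals that all overlap. Without thinning they ran from 0.901% to 19.3%. *Grb10* stood at 32.3% and 33.8% in the lower ranges and between 43.5% and 47.03% in the upper 3. *Plagl1* shares did not run in 1 direction over these ranges. The thinned share of *Plagl1* was 2.02% (2 cells, 0.246 to 7.11) in cells without *Lyve1* and 7.26% (4.65 to 10.7) above 0 to 1. It was 5.80% above 1 to 2, 0.826% above 2 to 3 and 0.541% (0.0137 to 2.97) above 3. The interval of the cells without *Lyve1* overlaps those of all other ranges, so its lower share was not resolved. Median depth was 126771 reads in cells without *Lyve1*, 516909 above 0 to 1, 119774 above 1 to 2, 251096 above 2 to 3 and 531825 above 3.

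**Figure D4:**
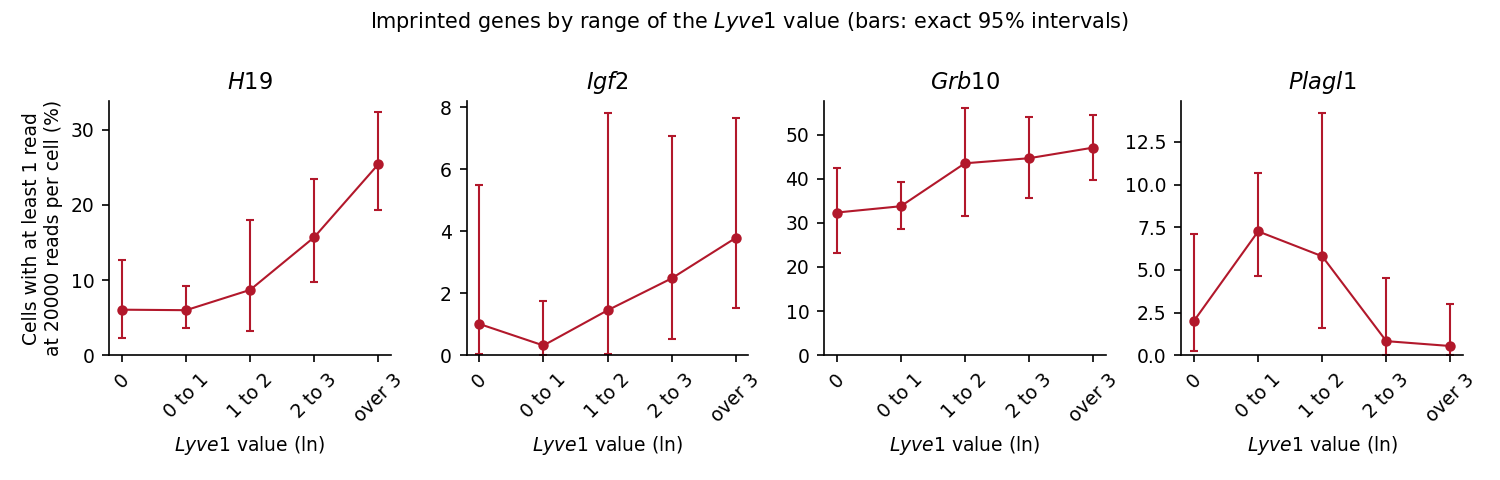
Share of cells with at least 1 read of *H19*, *Igf2*, *Grb10* and *Plagl1* on the y axis, in percent at 20000 reads per cell, over 5 ranges of the *Lyve1* value on the x axis. Bars are exact 95% intervals, and each panel has its own y axis. *H19* climbs from 6.06% to 25.4%, whereas *Plagl1* peaks at 7.26% at low *Lyve1* and is near 0 above a value of 2.

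Depth alone was also examined with no thinning, in 4 classes of total reads with near-equal numbers of cells. With *Lyve1* above 1 against the rest, *H19* was found in 15.9% against 6.12% of cells in the shallowest class, 27.4% against 8.70% in the second, 23.7% against 24.8% in the third and 34.3% against 11.01% in the deepest. In the third the shares were thus alike, yet the log2 ratio of the mean levels was 1.66 there and between 1.81 and 2.09 in the others. *Plagl1* was found in 1.96% of cells with *Lyve1* above 1 and 14.7% of the rest in the deepest class, and in 3.54% and 3.06% in the shallowest, where few cells of either side had it.

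*Lyve1* is 1 of several genes that distinguish LEC subtypes, so the cells were also split at a value of 1 of 8 other genes. These were *Stab2* and *Ptx3*, which the authors used for *Ptx3*-positive capillary LECs, and *Fndc1* and *Ptn*, which they used for *Ptx3*-negative capillary LECs. The others were *Foxp2*, *Igfbp5*, *Gja4* and *Cldn11*. Of the 72 differences in thinned share over 9 genes and 8 splits, the interval left out 0 for 13, with no adjustment for their number. *H19* was found in 4.81% of cells with *Igfbp5* above 1 and 16.6% of the others (difference −11.8 points, −15.8 to −7.47). With *Ptn*, a secreted growth factor, above 1, it was found in 1.22% of 82 cells against 13.5% of the others (−12.3 points, −15.2 to −6.47). With *Stab2*, a scavenger receptor that binds hyaluronan, above 1, it was found in 17.5% against 9.91% (7.57 points, 2.50 to 13.3). *Fndc1*, which is also high in part of the cells with high *Lyve1*, went with a lower share of *H19*, 7.41% against 13.3%, although the interval of the difference held 0 (−10.2 to 0.315). Among cells with *Lyve1* above 1, however, the thinned share of *H19* was 9.18% (4.29 to 16.7) with *Fndc1* above 1. It was 22.7% (17.9 to 28.1) with *Fndc1* at most 1, and these intervals were separate. In the rest the share was also lower with *Fndc1* above 1, but the intervals overlapped.

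*Plagl1* differed in the opposite direction to *H19* by *Stab2* and *Igfbp5*, with intervals that left out 0 for both genes. For the other 6 splits at least 1 of the 2 genes had an interval that held 0. *Plagl1* was found in 8.76% of cells with *Foxp2* above 1 against 2.91% of the others (5.85 points, 1.85 to 11.9), in 7.08% against 2.65% by *Gja4*, the gene of connexin 37 (4.42, 1.27 to 8.66), and in 5.84% against 2.80% by *Igfbp5* (3.04, 0.199 to 6.54). By *Stab2* it was found in 0.813% against 5.32% (−4.51, −6.80 to −1.87). At full depth no cell with both *Lyve1* and *Stab2* above 1 had a *Plagl1* read, which allows a share of up to 2.01%, or 2.45% by the exact interval. *Mest* was less often found with *Gja4* above 1 (7.96% against 14.2%) and with *Igfbp5* above 1 (9.28% against 14.2%), and *Peg3* with *Fndc1* above 1 (1.48% against 6.10%). *Igf2* was higher by *Fndc1* (4.44% against 1.07%) and *Gja4* (3.54% against 0.885%) and was found in 0 thinned cells with *Igfbp5* above 1, which allows up to 1.03%, or 1.26% by the exact interval, against 2.60% of the others, while at full depth it was found in 4.42% and 9.33%. *Grb10*, *Ndn*, *Cdkn1c* and *Meg3* had no split whose interval left out 0.

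**Figure D5:**
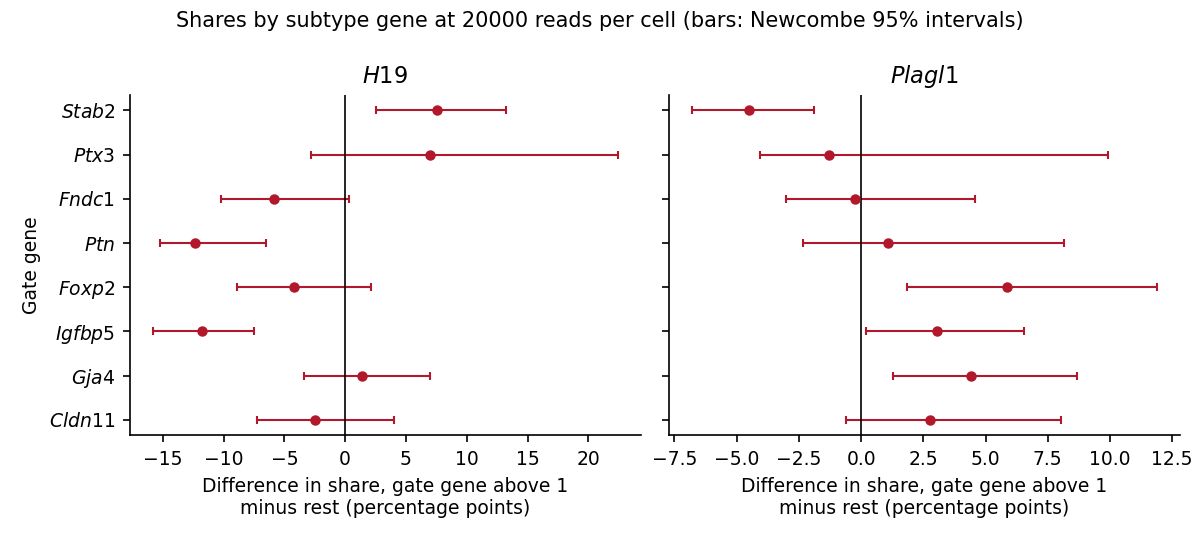
Difference in the share of cells with *H19* (left) and *Plagl1* (right), in percentage points at 20000 reads per cell, between cells with the gene on the y axis above 1 and all others. Bars are Newcombe 95% intervals. *H19* is lowest relative to other cells by *Ptn* (−12.3) and *Igfbp5* (−11.8) and higher by *Stab2* (7.57), whereas *Plagl1* is higher by *Foxp2* (5.85) and lower by *Stab2* (−4.51).

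The splits by *Lyve1* and *Igfbp5* were then crossed. *H19* was found, at 20000 reads, in 23.8% of cells (63 cells, 18.8 to 29.4) with *Lyve1* above 1 and *Igfbp5* at most 1, and in 8.18% (9 cells, 3.81 to 14.96) with both above 1. In the rest it was found in 8.51% of cells (20 cells, 5.28 to 12.8) with *Igfbp5* at most 1 and in 2.76% (5 cells, 0.903 to 6.33) with *Igfbp5* above 1. Without thinning these 4 shares were 30%, 14.2%, 16.3% and 8.42%. The interval of the class with high *Lyve1* and low *Igfbp5* lay above those of the other 3 classes. The intervals of those 3 overlapped each other, but such overlap does not settle whether the shares differ. Intervals of the differences by *Lyve1* at high *Igfbp5* and by *Igfbp5* at low *Lyve1* were not computed. Of the 51 cells with *H19* above 1, 35 had high *Lyve1* and low *Igfbp5*.

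*H19* and *Igf2* were found together in 30 cells, which is 47.6% of those with *Igf2*. *Igf2* was found in 18.99% of cells with *H19* (13.2 to 25.98) and in 4.82% of cells without it (3.34 to 6.71). Depth differed between these cells, with medians of 554926 and 317022 reads. Within the cells with *Lyve1* above 1, *Igf2* was found in 27.5% of cells with *H19* (28 cells, 19.1 to 37.2) and 8.85% of those without it (27 cells, 5.92 to 12.6). These shares were not thinned, and depth differed here too, with medians of 523147 and 261475 reads. Among the 40 cells there with *H19* above 1, which had a median of 213814 reads, it was found in 12 (30%, 16.6 to 46.5), although these cells were shallower than the cells without *H19* at 261475 reads. In the rest, *Igf2* was found in 2 of 56 cells with *H19* (3.57%) and in 6 cells, or 1.58%, of those without it.

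Other pairs had weak correlations. Over the 36 pairs, Spearman's rho of the thinned values across cells ran from −0.0753 to 0.157, and the highest was that of *H19* with *Igf2*. For pairs with neither of these genes it ran from −0.0717 to 0.0850, the highest being *Peg3* with *Ndn*. These values are weak, the counts are sparse and the cells share libraries and pool, so no pair is read as a finding. The lowest pair was *H19* with *Plagl1*, which shared 0 of 97 and 31 thinned cells and 7 cells at full depth. At full depth 18.2% of cells had a read of 0 of the 9 genes, 37.5% of 1 gene, 28.3% of 2 genes and 11.2% of 3 genes, with a highest number of 6. In the *Meg3* domain, 5 of the 12 cells with *Meg3* also had *Rian*, its neighbouring non-coding RNA, which was found in 0.241% of the other cells.

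Among 7695 genes found in at least 10% of the thinned cells, those most like *H19* by Spearman's rho across cells were *Lyve1* (0.221), *Prune2* (0.202), *Gpx3* (0.201), *Reln* (0.194) and *Plau* (0.186). On the natural log scale, cells with *H19* had a mean *Lyve1* value of 2.05 ± 1.52 against 1.33 ± 1.46 in cells without it. The mean of *Reln*, which encodes the secreted protein reelin, was 2.43 ± 0.854 against 2.001 ± 1.005, and that of *Gpx3*, a secreted glutathione peroxidase, 0.513 ± 0.853 against 0.190 ± 0.543. The most opposite genes were *Pkhd1l1* (−0.169), *Crip1* (−0.159), *Thbd* (−0.158), *Igfbp5* (−0.153) and *Bcam* (−0.149). *Thbd* encodes thrombomodulin, and its mean was 0.973 ± 0.929 with *H19* and 1.34 ± 0.965 without. For *Grb10*, *Mest* and *Ndn* the highest rho was 0.148 (*Gpr137b*), 0.1502 (*Dnajb12*) and 0.155 (*Trmt2a*), with rho to *Lyve1* of 0.124, 0.0287 and 0.0485. All of these are correlations across cells of 1 pool, weak in size, and the list of the *H19* neighbours overlaps the split used above.

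The wider set of imprinted genes was taken from a list of 24 genes given as paternally and 24 as maternally expressed in at least some tissues. Whether any of them is imprinted in these cells was not examined. Of the paternal list 21 had a row and 14 were found in at least 5% of cells. Of these, 1 (*Slc38a4*, an amino acid transporter) was past 1.5-fold higher with *Lyve1* above 1 and 0 were lower, with a median log2 ratio of −0.04. *Slc38a4* had a log2 ratio of 0.75 and was found in 38.8% against 25.98% of cells. The most widespread were *Peg13* (59.4%), *Impact* (42.6%), *Kcnq1ot1* (42.04%) and *Gab1* (35.6%). *Dlk1*, an imprinted partner of *Meg3*, had no read in any cell.

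On the maternal list 18 had a row and 8 passed the filter, of which *Gnas*, encoding the stimulatory G protein alpha subunit, was higher (log2 ratio 0.62, 53.3% against 45.7% of cells) and *Tspan32*, a tetraspanin gene, lower (−0.96, 4.18% against 10.3%). The median log2 ratio was −0.10. The most widespread were *Cd81* (95.5%), *Gnas* (49.4%), *Ube3a* (39.3%) and *Igf2r* (32.2%), the last encoding the receptor that clears IGF2. So 2 of 8 imprinted growth genes, 1 of 14 other paternal and 1 of 8 other maternal genes were past 1.5-fold higher, against 2.23% of all genes tested. Past 1.5-fold lower were 0, 0 and 1 of these, against 2.12%. The growth genes and the lists were chosen with earlier results of these data known, so these counts are no evidence about the groups.

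The ligands, receptors and binding proteins of the IGF system gave the other side of *Igf2*. Of 14 genes of the axis, 6 were tested, with *Pappa* higher and *Igf1* lower. *Igf1*, the second IGF ligand, was found in 13.8% of cells with *Lyve1* above 1 and 25.3% of the rest (log2 ratio −1.08), so the ligands lay on opposite sides of the split. *Pappa*, a protease that cuts IGF-binding proteins, was found in 33.7% and 20.7% (0.79). The receptors were common and were not past 1.5-fold. *Igf1r* was found in 70.5% of all cells (log2 ratio 0.22), *Insr* in 36.8% (0.07) and *Igf2r* in 32.2% (−0.33). *Igf2bp1* and *Pappa2* had no read.

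Of 7 binding-protein genes, 5 had a row and 4 were tested. *Igfbp3* (log2 ratio 1.61, 12.04% against 4.60% of cells) and *Igfbp4* (0.73, 95.3% against 88.97%) were higher with *Lyve1* above 1, *Igfbp5* was lower (−0.72), and *Igfbp7*, found in 84.9% of all cells, was not past 1.5-fold (0.33). Of the other CDK inhibitors beside *Cdkn1c*, 4 were tested and 0 were past 1.5-fold. By difference in thinned share, the measure used for *Cdkn1c* above, the interval left out 0 for each of these 4. With *Lyve1* above 1 the share was lower for *Cdkn1a* (−11.5 points, −18.2 to −4.65) and *Cdkn2d* (−7.91, −13.7 to −1.97). It was higher for *Cdkn1b* (9.96, 3.02 to 16.8) and *Cdkn2c* (3.44, 0.746 to 6.43). A difference by *Lyve1* was thus not particular to *Cdkn1c*. *Cdkn1a* was found in 76.1% of cells and *Cdkn1b* in 75.7%, against 8.08% for *Cdkn1c*. Of 10 proliferation genes, *Mki67* was found in 3.92% and *Top2a* in 1.31% of cells. *Pcna* was found in 69.95%, *Mcm2* in 12.1% and *Mcm5* in 7.72%. These last were the 3 proliferation genes tested, and 0 were past 1.5-fold.

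*H19*, *Igf2* and other imprinted genes are also abundant in stromal cells of young animals, so markers of other cell types were set beside the split. At least 1 of the 5 fibroblast genes was found in 11.3% of cells with *Lyve1* above 1 and 6.21% of the rest, and in 13.3% of cells with *H19* against 7.60% without. By gene, *Col3a1*, a fibrillar collagen gene, was found in 8.11% above the split and 2.76% of the rest, and the other 4 in at most 2.76% of either. The summed level of the fibroblast list ran from 0 to 3.802 reads per 10000 above the split and from 0 to 45.7 in the rest, and 0 cells with *H19* had 2 or more fibroblast genes. Without the 73 cells that had any fibroblast gene, a choice made after seeing the data, the difference of *H19* was 12.8 points (8.14 to 17.8), that of *Igf2* 2.21, of *Grb10* 12.8, of *Plagl1* −4.34 and of *Cdkn1c* −4.03. At least 1 of 5 mural genes was found in 6.88% of cells above the split and 5.75% of the rest, and in 8.23% of cells with *H19* and 5.85% without. For 5 immune genes the shares were 2.46% and 1.38% by the split, and 1.90% with and without *H19*. At least 2 of 5 blood endothelial genes were found in 75.4% above the split and 83.4% of the rest. *Plvap* was found in 73.5% and 81.8%, *Flt1* in 1.47% and 3.45%, and *Vwf*, encoding von Willebrand factor, in 1.97% and 8.05% (log2 ratio −1.36). *Cd34* (30.5% and 27.4%) and *Emcn* (94.3% and 94.02%) were not found less often above the split. The summed level of the 5 reached 30.1 and 45.1 reads per 10000, and at least 2 were found in 79.1% of cells with *H19* and 79.7% without. Of the cartilage list *Comp*, a matrix protein gene, was found in 37.1% and 46.4% (log2 ratio −0.60), while *Col2a1* and *Sox9* had no read. At least 1 gene was found in 1.47% and 1.61% for the epithelial list, 7.13% and 8.05% for the Schwann cell list, and 0.491% and 0.690% for the muscle list. The part of these genes in the result was not tested further.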

How the data were processed

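The authors aligned Smart-seq3 reads to mm10 with STAR, counted reads per gene with featureCounts and kept cells with at least 2000 genes and at most 10% mitochondrial reads. Seurat 4.1.0 is named in the submitters' processing notes. Values were deposited on a natural log scale (ln), of reads per 10000 with 1 added, although the methods name a log2 step, since exp(value) − 1 sums to 10000 in every cell. Annotation, strand and multi-mapping settings are not given in the sources used here.

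Of 1536 wells, 842 cells were deposited, 407 with *Lyve1* above 1 and 435 in the rest. *H19* was found in 102 and 56 of these. Whole reads were recovered (tolerance 0.01; 100% of values above 0) and thinned to 20000 reads without replacement, which left 375 and 416 cells. Shares have exact Clopper–Pearson intervals and their differences Newcombe intervals, both at 95%. Ratios are of mean reads per 10000 plus 0.1, for genes in at least 5% of cells. With 1 sample, no p-value was computed. Python 3.11.15, NumPy 2.4.6, pandas 2.3.3, SciPy 1.17.1 and statsmodels 0.14.6 were used, after a check on simulated data. Positions are from GENCODE M21 on GRCm38, the same assembly as mm10. Members and lists were chosen with earlier results of these data known. Named genes were all members, the 4 most widespread of the imprinted and IGF lists with any past 1.5-fold, and the 5 genes with the highest rho.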

Additional observations from a re-analysis of the deposited data

How the results depend on the processing

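Alternatives changed the depth, seed, minimum reads, *Lyve1* threshold, cell filter, pseudocount and gene filter, and 1, without cells having any fibroblast gene, was chosen after seeing the data. Of 81 alternatives for differences in share, 75 moved less than counting error, 5 moved more and 1 was reversed. A *Lyve1* threshold of 0 gave 7.09 points for *H19* and reversed *Plagl1* to 2.17 points (−3.03 to 4.46, an interval that held 0). Of the 99 thinned cells without *Lyve1*, 2 had *Plagl1*. That threshold also put 0 inside the intervals of *Grb10* (−2.51 to 17.03), *Igf2* (−3.83 to 2.24) and *Cdkn1c* (−10.4 to 0.512), whereas a threshold of 2 took it out of those of *Mest* and *Ndn*. The difference of *Igf2* was 11.7 points without thinning and 8.57 at 100000 reads, and that of *Plagl1* −7.66 and −8.36. The share of tested genes past 1.5-fold fell with a pseudocount of 1 from 2.23% to 0.346% higher and from 2.12% to 0.259% lower, and at a *Lyve1* threshold of 0 the share past 1.5-fold higher was 4.82%. Depth limits *Igf2* and *Meg3*, which had reads in 1.64% and 1.14% of thinned cells. No paired analysis was possible because all cells form 1 sample and no test was made, and leaving out replicates was not possible for the same reason.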
